A study of Rattus norvegicus with 9 samples.

Results

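The sodium potassium pump subunits described here are the β1, β2 and β3 subunits of the Na+,K+-ATPase, encoded by *Atp1b1*, *Atp1b2* and *Atp1b3*, and phospholemman, encoded by *Fxyd1*. Every probe set whose only gene symbol in the platform's annotation was one of these 4 genes was taken. That gave 9 of the 8740 probe sets that are not controls: 3 for *Atp1b1*, 3 for *Atp1b2*, 1 for *Atp1b3* and 2 for *Fxyd1*. They were measured in the posterior cricoarytenoid, the laryngeal muscle that opens the vocal folds, in rats aged 6, 18 and 30 months. Each age had 3 Affymetrix Rat Genome U34 arrays, and RNA from 4 animals was pooled for each array. Neither the strain nor the sex of the rats is stated in the labels, and no treatment is named. The series takes 6 months as the baseline and asks how expression in this muscle shifts with age.

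The pump exchanges intracellular sodium for extracellular potassium at the cost of ATP. In skeletal muscle it restores the ion gradients that each action potential runs down, and so helps a muscle to remain excitable during repeated contraction. Its α subunit is the catalytic chain, and the β subunit is a glycoprotein that brings α to the membrane and tunes its affinity for potassium. In rat muscle the β1 isoform is known mainly from oxidative fibres and β2 from fast glycolytic fibres, while β3 is a broadly expressed isoform. Phospholemman, a small membrane protein of the FXYD family, holds the pump's sodium affinity down until it is phosphorylated.

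The values are signals of Microarray Suite 5.0 on a linear scale, scaled by the authors so that the mean of each array after trimming 2% at each end was 500.9 to 501.0. Array medians ran from 104 to 125. Same-age arrays correlated at 0.978 to 0.986 across probe sets on the log2 scale and arrays of different ages at 0.975 to 0.989. Probe sets are not independent replicates, and 3 arrays an age limit the precision. The labelled tissue was checked against 11 skeletal muscle genes, of which 9 were on the array, and all 9 read above the filter on low signals, with α-actin (*Acta1*) at a mean of 29812 and muscle creatine kinase (*Ckm*) at 34163 at 6 months. All 5 cartilage genes on the array were below that filter, while 4 of 11 epithelium and gland genes were above it. The summed signal of 7 fibroblast genes was 16810.2 to 21279 at 6 months, 12229.5 to 13303 at 18 months and 13621 to 13826 at 30 months. That of 9 immune genes was 1238 to 1398, 1102 to 1289 and 1488 to 2102. The part of either in the values below was not tested. In pooled tissue, fewer cells of a type and less RNA per cell cannot be told apart.

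None of the 4 genes passed the test in any comparison of ages. A probe set counted as called where its limma p-value, adjusted by Benjamini and Hochberg over 5244 tested probe sets, was under 0.05. The tested sets were the upper 60% by mean log2(signal + 32), a cutoff of 6.60. Of the 9 probe sets 8 were tested. The weakest of those 8 was D90048exon_g_at of *Atp1b2*, with a mean of 6.68, and the one just outside was D90048exon_at of the same gene, at 5.69.

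At 18 against 6 months 0 of 8 were called, against 0.0763% of all tested probe sets, and at 30 against 6 months 0 of 8 against 0.324%. At 30 against 18 months the counts were 0 of 8 and 0.0191%, and in the F-test for any difference among ages 0 of 8 and 0.267%. At an unadjusted p under 0.05 limma also gave 0 of 8 in each of these 4 tests, where the shares of all tested probe sets were 8.62%, 12.9%, 3.2% and 8.92%. The arrays of both ages overlapped in all 8 tested probe sets in each comparison, so a rule asking for a ratio of means over 1.7 and no overlap gave 0 of 8 as well, against 1.43%, 2.23% and 0.629% of all tested. Over all tested probe sets 13.7%, 22.2% and 7.36% did not overlap at 18 against 6, 30 against 6 and 30 against 18 months. With 8 probe sets these counts of 0 cannot be set apart from the shares over the whole array, and the intervals of each gene below say more.

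**Figure D1:**
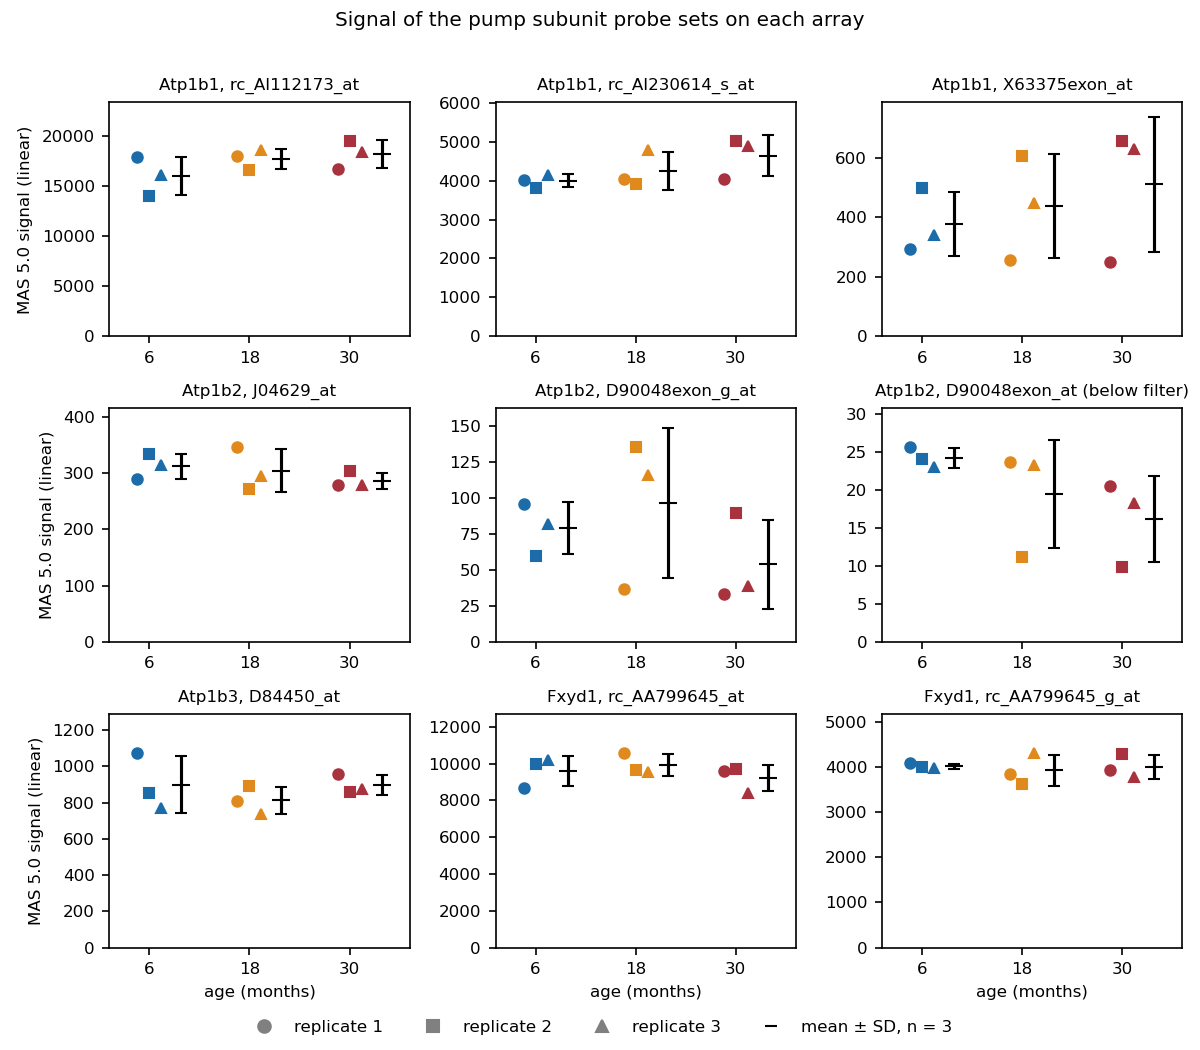
Signal of each of the 9 probe sets (MAS 5.0 signal, linear axis from 0) against age in months. Each point is 1 array (marker: replicate number) and the black bars give mean ± SD of 3 arrays; in the 8 probe sets above the filter the points of the ages overlap, and X63375exon_at and D90048exon_g_at scatter most.

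*Atp1b1* encodes β1, the isoform that pairs with α in most tissues. Its strongest probe set, rc_AI112173_at, read 17956, 14076 and 16097 in the pools of 6 months, 18015, 16660.5 and 18646 in those of 18 months and 16778, 19503 and 18409.7 in those of 30 months. The means were 16043 ± 1941, 17774 ± 1014 and 18230.2 ± 1371 (SD, n = 3 arrays per age), in the order 6, 18 and 30 months. Neighbouring ages in that order overlapped, and 1 array of 6 months was above 1 array of each later age.

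The log2 change of rc_AI112173_at was 0.19 at 30 against 6 months (SE 0.13, limma adjusted p = 0.534). Its 95% interval ran from 0.938-fold to 1.38-fold. Over fits that left out 1 array the log2 change ran from 0.098 (6 months replicate 2 left out) to 0.27 (6 months replicate 1 left out). At 18 against 6 months the log2 change of this *Atp1b1* probe set was 0.15 (SE 0.13, limma adjusted p = 0.742; interval 0.915-fold to 1.35-fold), and at 30 against 18 months 0.035 (0.844-fold to 1.24-fold). After quantile normalization, which gives all arrays the same distribution of signals, the first of these changes was 0.0018 and the second -0.018, so even the direction at 18 months hung on the scaling. In the strongest 5% of tested probe sets, 263 sets that include this one, the median log2 change with the authors' scaling was 0.11 at 30 against 6 months and 212 were higher. After quantile normalization that median was -0.0093, with 126 higher.

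The second *Atp1b1* probe set, rc_AI230614_s_at, read 4028, 3819 and 4157 in the pools of 6 months, 4054, 3907.5 and 4805 in those of 18 months and 4045, 5014 and 4885 in those of 30 months. At 30 months 2 arrays lay above all arrays of 6 months and 1 lay among them. The means were 4001 ± 171, 4255.5 ± 482 and 4648 ± 526 (SD, n = 3). The log2 change at 30 against 6 months was 0.21 (SE 0.13, limma adjusted p = 0.506), the smallest p of the pump probe sets in that comparison, with an interval of 0.946-fold to 1.41-fold. In this *Atp1b1* probe set quantile normalization left 0.19.

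The third *Atp1b1* probe set, X63375exon_at, was built on an exon entry and read far lower: 294, 499 and 340.2 in the pools of 6 months, 255.5, 604 and 447 in those of 18 months and 249, 654 and 627 in those of 30 months. The lowest reading at each age came from the array numbered replicate 1. The means were 378 ± 108, 436 ± 175 and 510.0 ± 227 (SD, n = 3), and the log2 change at 30 against 6 months was 0.33 (SE 0.38, limma adjusted p = 0.726). Its interval, 0.692-fold to 2.27-fold, was wide, and the scatter of this probe set around its age means was larger than in 97.3% of all tested probe sets. Without replicate 1 of 30 months the log2 change was 0.75, and without replicate 2 or 3 of 30 months it was 0.10 or 0.13; over all alternatives the limma adjusted p ran from 0.458 to 0.967. The mean of *Atp1b1* was in the order 6, 18 and 30 months in all 3 probe sets with the authors' scaling, and in each of them the steps were within the spread between pools.

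*Atp1b2* encodes β2, known in glia as an adhesion molecule. Its strongest probe set, J04629_at, read 289, 333.5 and 315 in the pools of 6 months, 346, 273 and 295 in those of 18 months and 278.5, 303 and 278.5 in those of 30 months. The array of 18 months numbered replicate 1 was the highest of all 9 and that numbered replicate 2 the lowest. The means in the order 6, 18 and 30 months were 313 ± 22.3, 305 ± 37.7 and 287 ± 14.3 (SD, n = 3). The log2 change of J04629_at was -0.11 at 30 against 6 months (SE 0.12, limma adjusted p = 0.705), -0.037 at 18 against 6 and -0.074 at 30 against 18. For 30 against 6 months the interval ran from 0.770-fold to 1.11-fold.

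The weaker *Atp1b2* probe set D90048exon_g_at read 95.4, 59.7 and 81.9 in the pools of 6 months, 36.9, 135 and 116 in those of 18 months and 33.0, 89.2 and 38.8 in those of 30 months. Both later ages held arrays far apart: the means were 79.0 ± 18.0, 96.0 ± 52.0 and 53.7 ± 30.9 (SD, n = 3). Its log2 change of -0.54 at 30 against 18 months was the largest of any pump probe set in any comparison (SE 0.34, limma adjusted p = 0.999, interval 0.407-fold to 1.17-fold). At 30 against 6 months it was -0.42 (SE 0.34, limma adjusted p = 0.613). The scatter of this probe set was above that of 95.5% of tested probe sets. Without replicate 1 of 18 months its change at 30 against 18 months was -0.93, and without replicate 1 of 30 months -0.37.

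The *Atp1b2* probe set below the filter, D90048exon_at, was listed at 25.6, 24.0 and 23.0 in the pools of 6 months, 23.7, 11.2 and 23.3 in those of 18 months and 20.5, 9.8 and 18.2 in those of 30 months. All 3 readings of 30 months were under all 3 of 6 months. It was not tested, and its readings lay between the percentiles 13.8 and 22.2 of the signals of their arrays. Among tested probe sets 14.8% were lower at 30 months without overlap.

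*Atp1b3* encodes β3 and had a single probe set, D84450_at. It read 1074, 853 and 770.0 in the pools of 6 months, 806, 891 and 738 in those of 18 months and 958, 860.2 and 872 in those of 30 months. The highest and the second lowest of the 9 readings both came from 6 months, so that age spanned nearly the whole range. The means were 899 ± 157, 812 ± 76.4 and 897 ± 53.4 (SD, n = 3), lowest at 18 months. The log2 change was -0.13 at 18 against 6 months (SE 0.14, limma adjusted p = 0.805), 0.0081 at 30 against 6 months (adjusted p = 0.988) and 0.14 at 30 against 18 months (adjusted p = 0.999). For *Atp1b3* the interval at 30 against 6 months was 0.808-fold to 1.25-fold.

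*Fxyd1*, the regulator of the complex, had the narrowest intervals. Its strongest probe set, rc_AA799645_at, read 8685, 9973 and 10187 in the pools of 6 months, 10580.2, 9630.3 and 9536 in those of 18 months and 9588, 9686 and 8422 in those of 30 months. The lowest readings were 1 array of 30 months and 1 of 6 months. The means were 9615 ± 813, 9915.5 ± 578 and 9232 ± 704 (SD, n = 3), highest at 18 months. The log2 change was -0.058 at 30 against 6 months (SE 0.12, limma adjusted p = 0.863; interval 0.801-fold to 1.15-fold), and -0.10 at 30 against 18 months. At 18 against 6 months it was 0.046, which turned to -0.044 after quantile normalization.

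The other *Fxyd1* probe set, rc_AA799645_g_at, uses the same expressed sequence tag. It read 4088, 3992.5 and 3976 in the pools of 6 months, 3839, 3636 and 4315 in those of 18 months and 3938, 4299 and 3783.5 in those of 30 months. The arrays of 6 months lay within those of both later ages. The means were 4019 ± 60.5, 3930.0 ± 349 and 4007 ± 265 (SD, n = 3), and the log2 change at 30 against 6 months was -0.0062 (SE 0.11, limma adjusted p = 0.988). Its interval was 0.838-fold to 1.18-fold, and the scatter around the age means was above that of only 6.37% of tested probe sets. The 2 intervals of *Fxyd1* at 30 against 6 months thus reached from 0.801-fold to 1.18-fold at most.

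**Figure D2:**
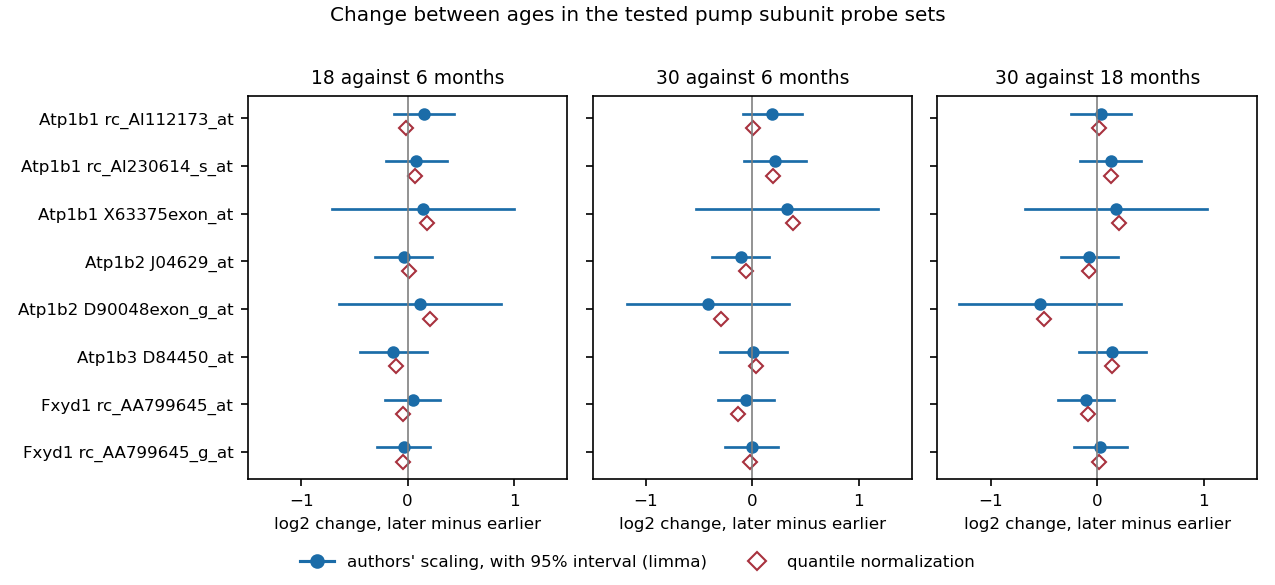
Log2 change (later minus earlier age) of the 8 tested probe sets in the 3 comparisons. Blue points and lines are limma estimates with 95% intervals under the authors' scaling and red diamonds the estimates after quantile normalization; every interval includes 0, and the change of rc_AI112173_at at 30 against 6 months moves from 0.19 to 0.0018.

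Over the 8 tested probe sets the median log2 change was 0.065 at 18 against 6 months, 0.00093 at 30 against 6 months and 0.032 at 30 against 18 months. The medians over all 5244 were -0.042, -0.051 and -0.016. The median sizes of change without sign were 0.10, 0.15 and 0.11 in the pump probe sets and 0.14, 0.16 and 0.11 over all tested.

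Probe sets of 1 gene did not always move together from array to array. For 7 such pairs the log2 signals were correlated over the 9 arrays, with exact permutation tests. The strong *Atp1b1* probe sets rc_AI112173_at and rc_AI230614_s_at had r = 0.76 and Spearman's rho = 0.80 (exact permutation p = 0.0153 and 0.0138, two-sided; adjusted over the 7 pairs p = 0.107 for r). Without the 2 arrays farthest from the median of the first, r was 0.84. X63375exon_at of *Atp1b1* had r = 0.11 with the first and 0.50 with the second (exact permutation p = 0.803 and 0.169; rho 0.30 and 0.37), which became 0.38 and -0.018 without the 2 farthest arrays.

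Both *Fxyd1* probe sets, made on 1 tag, had r = 0.011 and rho = -0.067 over 9 arrays (exact permutation p = 0.977 and 0.880, adjusted p = 0.977 for r), and r = -0.30 without the 2 farthest arrays. Among 536 tested pairs of this kind on the array, with names ending in _at and _g_at on 1 accession, the median r was 0.36. In 127 of them (23.7%) r was below that of *Fxyd1*. In 177 of the 536 pairs both probe sets were among the stronger ones on the array, as both *Fxyd1* sets were. There the median r was 0.51, and in 32 pairs (18.1%) r was below that of *Fxyd1*. The *Atp1b2* pairs had r of -0.26 (J04629_at with D90048exon_g_at), 0.42 (J04629_at with D90048exon_at) and -0.31 (both D90048exon sets). Their exact permutation p-values were 0.484, 0.258 and 0.402, with rho of -0.28, 0.48 and -0.10, and r of 0.23, 0.20 and -0.24 without the 2 farthest arrays.

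**Figure D3:**
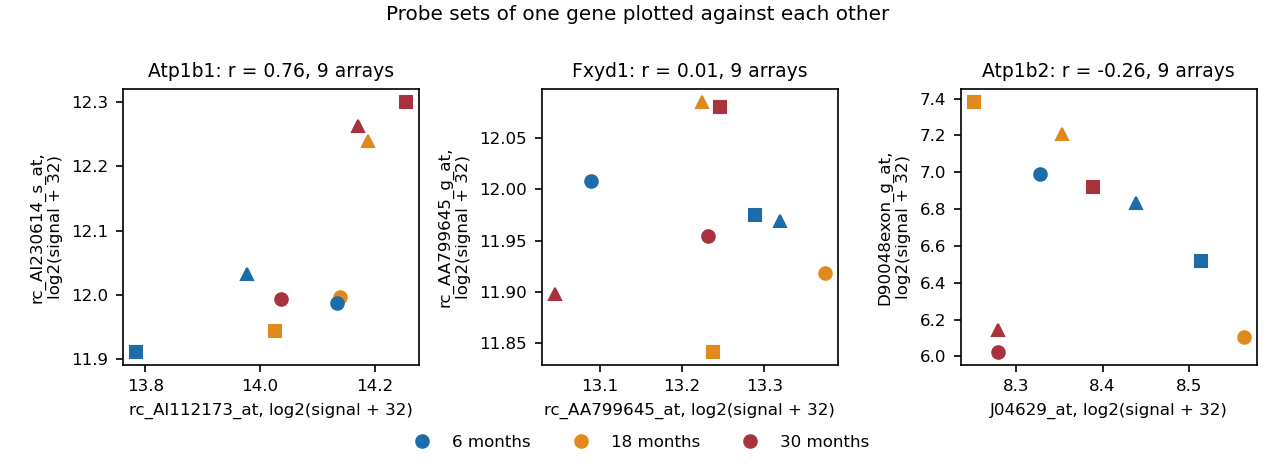
Log2(signal + 32) of a pair of probe sets of 1 gene, each point 1 of the 9 arrays (colour: age; marker: replicate number as in the plot of signals). The *Atp1b1* points lie along a rising line (r = 0.76), the *Fxyd1* points do not (r = 0.011), and the *Atp1b2* sets J04629_at and D90048exon_g_at have r = -0.26.

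The balance of the β isoforms was followed as the ratio of their strongest probe sets on each array. These ratios are of signal, not of molecules, since probe sets respond differently to the same RNA: the 3 probe sets of *Atp1b1* alone had means of 378 to 16043 at 6 months. *Atp1b1* made up 93.0% ± 0.73 of the summed signal of the 3 isoforms at 6 months, 94.1% ± 0.64 at 18 months and 93.9% ± 0.65 at 30 months (SD, n = 3). The share of *Atp1b2* was 1.84% ± 0.34, 1.61% ± 0.17 and 1.48% ± 0.062, and that of *Atp1b3* 5.21% ± 0.63, 4.32% ± 0.63 and 4.65% ± 0.60. With the mean log2 signal of all probe sets of a gene, the share of *Atp1b1* was 70.4% to 81.2% over the arrays, against 92.2% to 94.8% with the strongest. The choice of probe sets therefore sets the level of a share, and only its change between ages was compared.

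The log2 ratio of *Atp1b1* to *Atp1b2* was 5.96, 5.40 and 5.68 in the pools of 6 months, 5.70, 5.93 and 5.98 in those of 18 months and 5.91, 6.01 and 6.05 in those of 30 months. At 30 months 2 arrays were above all of 6 months, and the third was below 1 of them. The mean at 30 months was higher by 0.31 on the log2 scale (exact permutation p = 0.2, two-sided; adjusted over 9 ratio tests p = 0.45). Leaving out replicate 2 of 6 months gave 0.17 and leaving out replicate 1 of 6 months 0.45, the lowest and highest of such values. The test of 3 against 3 arrays cannot go below 0.1. After quantile normalization the difference was 0.069 (exact permutation p = 0.9). With all probe sets of a gene, including the one below the filter, it was 0.73 (exact permutation p = 0.1, adjusted p = 0.3), with no overlap between the 2 ages.

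The ratio of *Atp1b1* to *Atp1b3* was higher by 0.29 at 18 against 6 months and by 0.18 at 30 against 6 months (exact permutation p = 0.2 in each; adjusted p = 0.45). The ratio of *Atp1b2* to *Atp1b3* differed by 0.096 and -0.13 in the same comparisons (exact permutation p = 0.6 in each). At 30 against 18 months the 3 ratios differed by 0.12, -0.11 and -0.23, with exact permutation p-values of 0.3, 0.6 and 0.3. The ratio of *Fxyd1* to *Atp1b1*, regulator to β1, was added after the signals had been seen. Its mean was -0.73 ± 0.28 at 6 months, -0.84 ± 0.11 at 18 months and -0.98 ± 0.16 at 30 months (SD, n = 3). The difference at 30 against 6 months was -0.25 (exact permutation p = 0.3; adjusted over 3 tests p = 0.45), and -0.14 after quantile normalization.

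**Figure D4:**
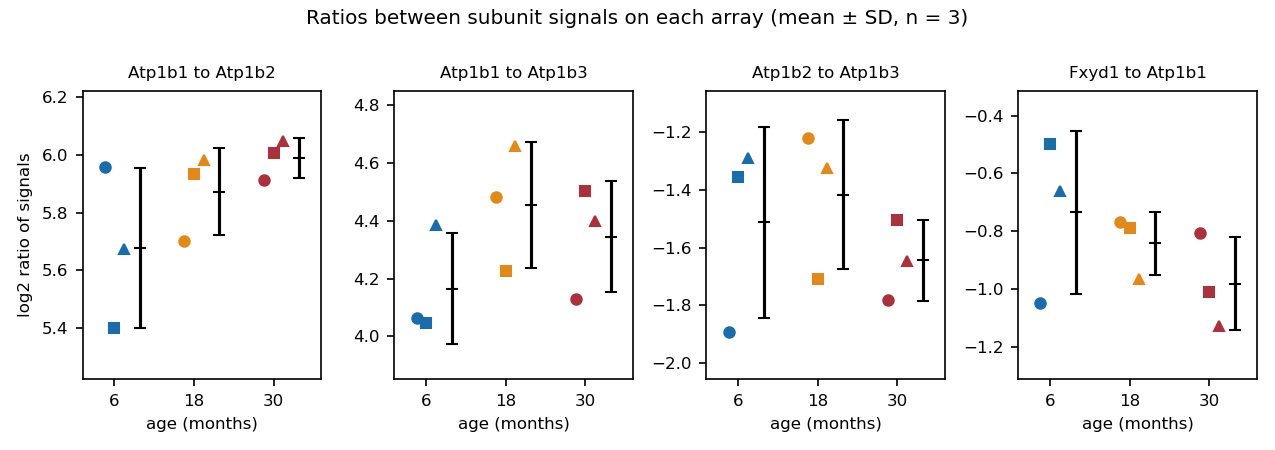
Log2 ratio of signals of subunit pairs (strongest probe set of each gene) on each array by age in months, with mean ± SD of 3 arrays in black; the axes do not start at 0 and each spans 1 log2 unit. The *Atp1b1* to *Atp1b2* ratio has means of 5.68, 5.87 and 5.99 and overlaps between ages.

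The 4341 tested probe sets with 1 symbol were searched for genes with a pattern over the 9 arrays like that of each subunit. Each subunit was taken by its strongest probe set alone, and the genes of highest r are given. For *Atp1b1* they were the elongation factor *Eef2* (r = 0.94), the lysosomal protease *Ctsd* (0.89) and *Acta1* (0.89). *Atp1b2* was followed by haptoglobin, *Hp* (0.97), the phosphatase *Ptpn18* (0.95) and the sterol enzyme *Nsdhl* (0.93). For *Atp1b3* they were the calmodulin kinase *Camk2g* (0.94), the slow and cardiac calcium pump *Atp2a2*, in a probe set other than its strongest (0.93), and monoamine oxidase A, *Maoa* (0.92). For *Fxyd1* they were the prolyl isomerase *Fkbp2* (0.91), the growth factor *Fgf2* (0.88) and the initiation factor subunit *Eif2b3* (0.88). Such likeness belongs to the probe set and not to the gene. The other *Fxyd1* probe set had r = 0.011 with rc_AA799645_at. J04629_at of *Atp1b2* had r = -0.26 with D90048exon_g_at and 0.42 with D90048exon_at. For *Atp1b1*, rc_AI112173_at had r = 0.76 with rc_AI230614_s_at and 0.11 with X63375exon_at. Some of the named genes read below or near the array medians of 104 to 125. Those were *Nsdhl* (49.2 to 87.1), *Fgf2* (48.4 to 116.1), *Ptpn18* (89.5 to 158.6) and *Hp* (97.1 to 168.3). The r of the named genes are the highest of 4341 correlations per member over 9 arrays that share their scaling, and are given as a description.

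The catalytic α subunits in skeletal muscle were not analysed here. *Atp1a4*, the catalytic isoform known from testis, was listed at 9.5 to 58.8 over the arrays, below the filter. It was the 1 gene of a list of 5 other pump subunits that could be matched here. Around the pump, 98 genes in 5 lists were looked at: other FXYD proteins, other P-type pumps, sodium-coupled transporters, channels of membrane excitability and regulators of the pump. Of the 79 on the array 54 were tested. At 18 against 6 months limma called 0 of 54, at 30 against 6 months 1 higher and 0 lower, and at 30 against 18 months 0, against 0.0763%, 0.324% and 0.0191% of all tested probe sets. At an unadjusted p under 0.05 limma gave 5, 7 and 2 of 54, against 8.62%, 12.9% and 3.2% of all tested. The median log2 changes were -0.054, -0.012 and -0.032.

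The call was that of D88190_s_at, the strongest probe set of *Stk39* in the regulator list. *Stk39* encodes a kinase of the pathway that controls sodium-coupled chloride transporters. The means of D88190_s_at in age order were 285 ± 20.8, 396 ± 66.6 and 611 ± 34.8 (SD, n = 3). Its log2 change at 30 against 6 months was 1.02 (SE 0.14, limma adjusted p = 0.0206). Other *Stk39* probe sets had log2 changes of 0.034 and -0.66 in that comparison (limma adjusted p = 0.938 and 0.334), so the rise was not shared by the probe sets of the gene. The call of D88190_s_at ended without any 1 array of 6 months (limma adjusted p = 0.0987, 0.123 and 0.0625 without replicates 1, 2 and 3). It also ended without replicate 2 or 3 of 30 months (0.121 and 0.0756). Over all alternatives that adjusted p ran from 0.00681 to 0.123.

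Among the FXYD genes, *Fxyd2*, the regulator known from kidney, had a mean of 131 ± 25.6 at the youngest age and 81.7 ± 21.5 at 18 months (SD, n = 3). Its log2 change was -0.52 at 18 against 6 months (limma adjusted p = 0.492) and -0.36 at 30 against 6 months (0.430). *Fxyd4* had a log2 change of -0.17 at 30 against 6 months. In the P-type pump list 5 of 9 tested genes were above 6 months at 30 months, with a median of 0.11. The calcium pumps *Atp2a1* of fast fibres (0.30, limma adjusted p = 0.340) and *Atp2a2* (0.11) had the highest signals. Of the sodium-coupled transporters 7 of 10 were below 6 months at 30 months, with a median of -0.017; the creatine transporter *Slc6a8* had 0.10 and the phosphate transporter *Slc20a2* -0.0094. In the channel list, 8 of 15 were higher with a median of 0.0039; the ATP-sensitive potassium channel *Kcnj11* had 0.27 and the calcium channel subunit *Cacna2d1* -0.30, and neither passed the test. Of the regulators 9 of 18 were higher, with a median of 0.017. After quantile normalization the medians of these lists were 0.061 (pumps), 0.013 (transporters, 6 of 10 higher), 0.082 (channels) and 0.086 (regulators), so the transporter list changed sign.

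The fibre-type lists, set beside the pump because β isoforms are known to differ between fibre types, had 12 of 13 fast-fibre genes higher at 30 against 6 months (median 0.20) and 8 of 8 slow-fibre genes (median 0.15). Over all tested probe sets 41.2% were higher in that comparison. In the strongest 5%, where most fast-fibre genes lay, 212 of 263 were higher. The quantile-normalized values of the gene lists were added once the data had been seen. After quantile normalization 8 of 13 fast-fibre genes were higher (median 0.0086) and 8 of 8 slow-fibre genes (median 0.15), against 48.2% of all tested. In the strongest 5% 126 of 263 were then higher. In each list limma called 0 genes with the authors' scaling. Their summed signals were 218591 to 258882 at 6 months and 252905.5 to 281962 at 30 months for the fast list, and 30623 to 35706 and 38763.5 to 41569 for the 9 slow-fibre genes on the array. The lists of other cell types had median log2 changes at 30 against 6 months of -0.12 (Schwann cells and nerve), -0.027 (endothelium and smooth muscle), -0.049 (fat), 0.38 (immune cells), -0.81 (fibroblasts), -0.22 (epithelium and gland) and 0.34 (erythrocytes). Calls among them were the collagen genes *Col1a1*, *Col1a2* and *Col3a1*, all lower (limma adjusted p = 0.0252, 0.0092 and 0.0418). The part of these shifts in the *Atp1b1* and *Atp1b2* values was not tested.

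**Figure D5:**
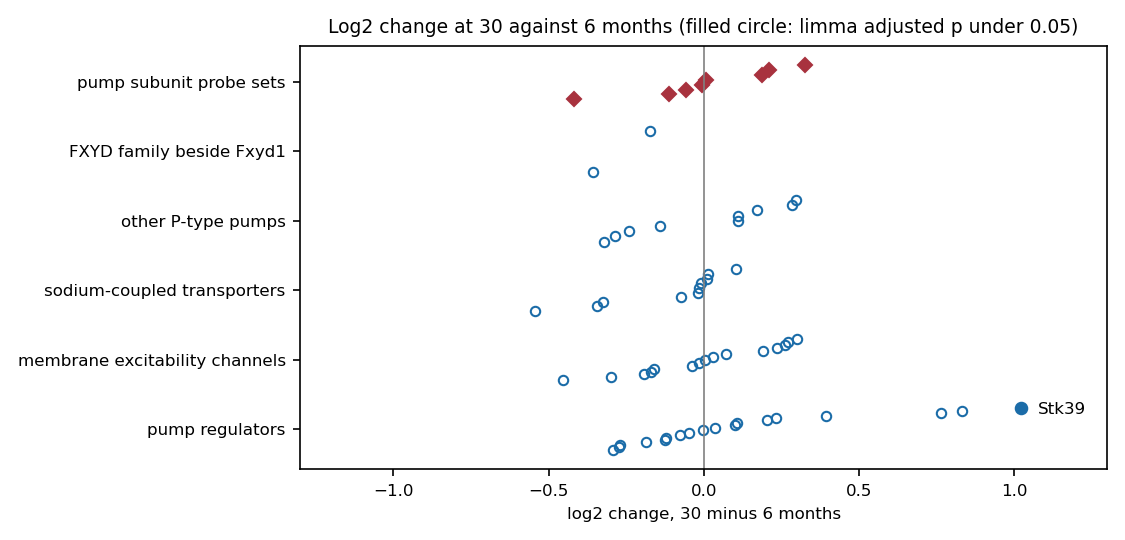
Log2 change at 30 against 6 months of the 8 tested pump subunit probe sets (red diamonds) and of 54 tested genes in 5 related lists (blue circles, each gene by its strongest probe set; vertical offsets only separate points). The 1 filled circle, *Stk39* at 1.02, has a limma adjusted p under 0.05, and the pump subunits lie between -0.42 and 0.33.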

How the data were processed

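The deposited values are signal intensity of Microarray Suite 5.0 on a linear scale, scaled per array by the authors, per the labels' design text; biotinylated cRNA was hybridized, so each array was treated as 1 channel. The table held 8799 probe sets, of which 59 were controls and left out. Signals were analysed as log2(signal + 32), which understates changes of weak probe sets. With lmFit and eBayes of limma 3.58.1 (R 4.3.3), age means were estimated for 5244 probe sets from all 9 arrays (6 residual and 3.69 prior degrees of freedom), with two-sided p-values adjusted over all of them. Intervals are 95% intervals of that fit. P-values of the age comparisons set a difference against the spread between arrays of 1 pool each, so variation of pools and of arrays cannot be told apart. Those of probe set pairs concern agreement over the 9 arrays. Ratios were compared with exact permutation tests in scipy 1.17.1. The scripts were tested on simulated data of 5244 probe sets with changes set at 30 against 6 months on the log2(signal + 32) scale. Changes of 1.5-fold, 2-fold, 3-fold and 4-fold were set in 50 probe sets each. There limma called 38% of 50 probe sets changed 1.5-fold, 84% of 50 changed 2-fold and 96% of 50 changed 3-fold. Changes under 2-fold could thus often go uncalled. The data gave 17 calls in that comparison, and an adjusted p is harder to pass where fewer probe sets change. The simulated shares can therefore be too high for these data. They are shares over randomly chosen probe sets and do not hold for those with wide scatter, such as X63375exon_at (SE 0.38) and D90048exon_g_at (SE 0.34). Gene names came from the platform annotation.

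The members, the 17 gene lists (215 genes, from general knowledge) and the tests were chosen with earlier results of these data known. All member probe sets are named; from each related list, at most 4 called genes (where none was called, the 2 of highest signal); and for each member the 3 genes of highest Pearson r. Alternatives were other pseudocounts and filters, quantile normalization, replicate number as a block, fits of only the compared ages, an intensity trend, a fold rule and leaving out each array.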

Additional observations from a re-analysis of the deposited data

How the results depend on the processing

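No pump probe set passed an adjusted p of 0.05 in any of 402 refitted values over 24 combinations of probe set and comparison, and the fold rule (ratio over 1.7 without overlap) called 0. At an unadjusted limma p under 0.05 a pump probe set passed in 0 refits at 18 against 6 months and 1 at 30 against 6 months. At 30 against 18 months and for any age it was 2 and 1 refits. Over all tested probe sets the counts called were 4, 17, 1 and 14 (18 against 6, 30 against 6, 30 against 18 months, any age), and 0 to 75, 0 to 117, 0 to 33 and 0 to 19 over the alternatives, the fold rule included. The upper ends 75, 117 and 33 were counts of the fold rule, a measure unlike the limma calls. With replicate number as a block limma also called 0 pump probe sets in each comparison. Same-numbered arrays had correlations of deviations of -0.021 to 0.26 and others -0.21 to 0.15. The ranges overlapped, but the same-numbered one lay higher. Its values were 0.13, 0.11 and 0.26 between arrays numbered replicate 1 and 0.028, 0.044 and 0.22 between those numbered replicate 2. Arrays numbered replicate 3 had -0.021, 0.035 and 0.085. The highest value between differently numbered arrays, 0.15, was that of 6 months replicate 3 with 18 months replicate 2. The main fit did not take the numbers as pairs, and whether they mark a shared batch was not tested. At 30 against 6 months the block moved the unadjusted limma p of X63375exon_at from 0.415 to 0.119, and that of rc_AI112173_at from 0.165 to 0.196. D90048exon_g_at fell below the filter with the upper 40% of probe sets and without replicate 2 of 18 months.

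Directions turned in small changes. At 18 against 6 months quantile normalization gave 0.013 for J04629_at, -0.044 for rc_AA799645_at and -0.018 for rc_AI112173_at, and it gave -0.032 for *Atp1b1* to *Atp1b2* at 18 against 6 months and -0.033 for *Atp1b1* to *Atp1b3* at 30 against 6 months. Over fits that left out 1 array, changes at 18 against 6 months ran from -0.036 to 0.52 in D90048exon_g_at, -0.12 to 0.032 in J04629_at, -0.025 to 0.089 in rc_AA799645_at, -0.10 to 0.018 in rc_AA799645_g_at, -0.0068 to 0.14 in rc_AI230614_s_at and -0.11 to 0.46 in X63375exon_at. At 30 against 6 months they ran from -0.093 to 0.14 in D84450_at, -0.13 to 0.0068 in rc_AA799645_at and -0.058 to 0.034 in rc_AA799645_g_at. At 30 against 18 months they ran from -0.14 to 0.013 in J04629_at, -0.024 to 0.10 in rc_AA799645_g_at, -0.015 to 0.094 in rc_AI112173_at and -0.14 to 0.60 in X63375exon_at. At 18 against 6 months the ratio of *Atp1b2* to *Atp1b3* ran from -0.094 to 0.24 and that of *Fxyd1* to *Atp1b1* from -0.26 to 0.012. The cause of these turns was not tested. Intervals at 30 against 6 months were widest in X63375exon_at (0.692-fold to 2.27-fold) and D90048exon_g_at (0.442-fold to 1.27-fold).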
